A study of Rattus norvegicus with 12 samples.

Results

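Levels of 10 mRNAs of the integrated stress response were measured in the livers of protein-restricted rats: the transcription factors Atf4, Atf5, Atf3, Ddit3 (which encodes CHOP) and Cebpb, the cofactor Nupr1, and the feedback and effector genes Trib3, Ddit4, Ppp1r15a and Chac1. They were chosen by name, as the genes of ATF4, of CHOP and of the regulators that feed back on them. Earlier results of these data were known when they were chosen. They make up 10 of the 16667 genes that could be named on the array. All 10 had a probe, 14 probes in all, and all 14 were bright enough to be tested. The low protein group was 6 male Wistar rats on a diet with 5% casein, and the control group was 6 male Wistar rats on a diet with 14% casein that was matched for energy. All were adults and were fed for 4 weeks. Total RNA of each liver was hybridised to 1 single-colour array, and the study asked which metabolic enzymes respond to protein undernutrition. A level is given below as log2 of a probe's signal relative to the 75th percentile of its array, so it can be compared between rats but not between probes. A change is the mean level in low protein rats minus that in control rats. Its standard error (SE) is that of limma, from 6 rats per diet with the spread moderated across genes.

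The integrated stress response starts when a kinase phosphorylates the translation initiation factor eIF2α, as GCN2 does when amino acids are scarce and PERK when proteins misfold in the endoplasmic reticulum (ER). Most translation then slows while that of Atf4 mRNA increases, and ATF4 protein, often paired with a C/EBP factor, raises transcription of genes for amino acid synthesis and transport. Among its targets are genes that act back on the pathway: CHOP, TRIB3, which binds ATF4, and GADD34 (the Ppp1r15a product), which brings a phosphatase back to eIF2α.

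The array data were even across the 12 livers. The 75th percentile of the signal was 942 to 1317 intensity units, 61.2% to 69.9% of spots were well above background, and 0 spots were saturated. The arrays lay on 2 slides, with 4 rats per diet on slide 1 and 2 per diet on slide 2. All 7 hepatocyte markers tested, Alb and Ttr among them, were well above background on all 12 arrays, which fits the labelled tissue. Diet changed 1428 of the 21855 genes in the test (6.53%, limma with an adjusted p under 0.05), with 761 higher (53.3% of the calls) and 667 lower. A fit of single probes called 6.69% of 25685 probes. Without scaling of the arrays 76.2% of 890 calls were higher, and the median change of all genes moved to 0.11, against -0.03 with scaling.

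Ddit4, Trib3, Nupr1, Atf4 and Atf5, 5 of the 10 genes, were higher in the low protein livers by limma. None was lower at the adjusted threshold or at an unadjusted p under 0.05. Of all genes tested, 3.48% were called higher (3.57% of those with a name) and 3.05% lower. The levels of the 2 diets did not overlap for 4 of the 10 genes, against 4.98% of all genes tested. The median change of the 10 genes was 0.31 on the log2 scale. Each level is that of a whole liver, in which fewer cells of a type and less RNA per cell cannot be told apart.

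**Figure D1:**
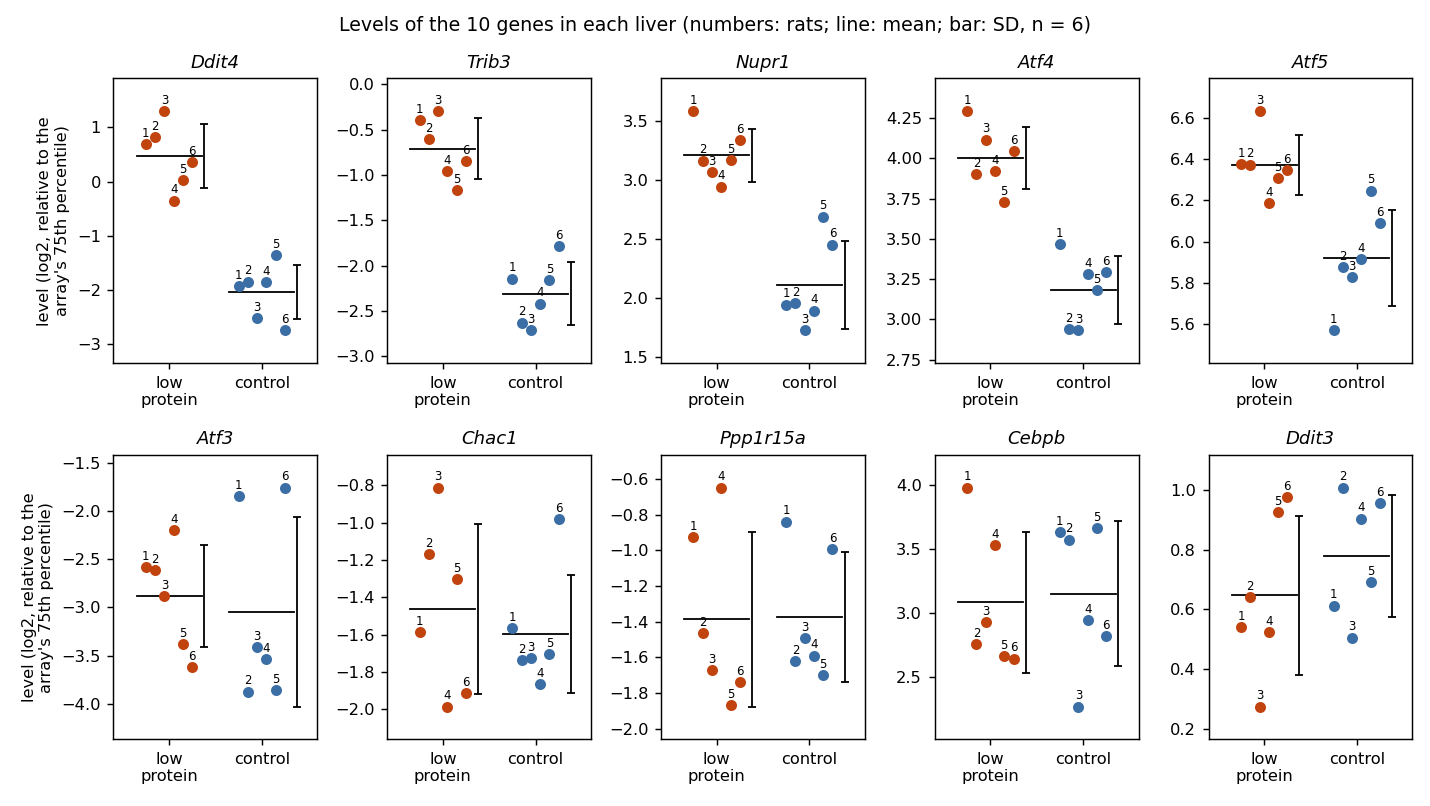
Level of each of the 10 genes in each rat, as log2 of the signal relative to the array's 75th percentile, with low protein rats left of control rats in each panel; points are rats with their numbers, and lines are diet means with bars of 1 SD (n = 6). The diets do not overlap for Ddit4, Trib3, Nupr1 and Atf4, overlap by 1 low protein and 1 control rat for Atf5, and lie across each other for the other 5 genes.

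Among the transcription factors, Atf4 itself rose. Its level was 3.73 at the lowest, 3.98 at the median and 4.29 at the highest in low protein rats, against 2.93, 3.23 and 3.47 in control rats. Every low protein rat was above every control rat. The change was 0.82 ± 0.12 (SE, 95% interval 0.57 to 1.07), which is 1.76-fold (limma adjusted p = 0.00186). The probe was printed on 10 spots per array. Its mean signal was 18597 intensity units in low protein rats and 9727 in control rats.

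Atf5, a related factor that is also controlled through upstream open reading frames and is abundant in liver, rose too. Its level was 6.19, 6.36 and 6.63 (lowest, median, highest) in low protein rats, against 5.57, 5.90 and 6.25 in control rats. Low protein rat 4, the lowest of its diet, lay just under control rat 5, the highest of its diet, and the other 5 low protein rats were above all controls. The change was 0.45 ± 0.11, or 1.37-fold (limma adjusted p = 0.0324). That estimate lay below the one for Atf4, but the difference of 0.37 did not pass (exact permutation, adjusted p = 0.0765). A second Atf5 probe gave 0.55 ± 0.11 (adjusted p = 0.0128) with no overlap of the diets. The Atf5 call was lost without low protein rat 1, 2, 3, 5 or 6, and without control rat 2, 3 or 4, with adjusted p-values of 0.0530 to 0.0737 in those 8 repeats. With the rat number as a block its adjusted p was 0.0688.

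Ddit3, whose product CHOP is the stress factor linked to cell death, was not called. Its level was 0.28, 0.59 and 0.98 in low protein rats, against 0.51, 0.80 and 1.01 in control rats. The diets overlapped over nearly their whole range, and no low protein rat was above the highest control. The change was -0.13 ± 0.13 (95% interval -0.42 to 0.15, limma adjusted p = 0.621). The upper bound of that interval lies below the lower bound for Atf4.

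Atf3, an ATF4 target that represses transcription and is induced within minutes to hours by many stresses, varied more between rats than between diets. Its level was -3.62, -2.75 and -2.20 in low protein rats, against -3.87, -3.47 and -1.76 in control rats. Control rats 1 and 6 were the highest of all 12, and the other 4 controls were near or below the lowest low protein rats. The change was 0.17 ± 0.41 (limma adjusted p = 0.863), with a 95% interval of -0.72 to 1.05 that would include a change as large as that of Atf4. With 1 rat left out the change was 0.00055 to 0.42, never called.

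Cebpb, a C/EBP factor that can pair with ATF4 and that also takes part in the acute phase response and gluconeogenesis, had a similar spread. Its level was 2.65, 2.84 and 3.98 in low protein rats, against 2.27, 3.26 and 3.66 in control rats. Low protein rat 1 was the highest of all and control rat 3 the lowest, and the diets overlapped. The change was -0.07 ± 0.29 (95% interval -0.70 to 0.56, limma adjusted p = 0.926), and a second probe gave -0.16 ± 0.32 (adjusted p = 0.829).

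Promoter sequence shows where letters that match motifs of such factors lie at 4 of the genes. The stretches are upstream of the RefSeq gene start in the GRCr8 rat assembly and read 5′ to 3′ on the gene's strand. Trib3 and Nupr1 were called higher and Chac1 was not called, and all 3 hold the C/EBP-ATF composite element, in capitals. Ppp1r15a holds a full cAMP response element, also in capitals. They lie at chr3:161275534-161275613 (minus strand, Trib3), chr1:190645922-190646001 (minus strand, Nupr1), chr3:126795931-126796010 (plus strand, Chac1) and chr1:105139617-105139696 (minus strand, Ppp1r15a).
Trib3: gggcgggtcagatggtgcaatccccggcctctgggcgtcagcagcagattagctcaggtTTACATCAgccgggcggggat
Nupr1: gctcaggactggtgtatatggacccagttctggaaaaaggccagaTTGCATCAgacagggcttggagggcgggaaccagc
Chac1: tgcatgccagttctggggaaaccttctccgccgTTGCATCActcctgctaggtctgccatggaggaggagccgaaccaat
Ppp1r15a: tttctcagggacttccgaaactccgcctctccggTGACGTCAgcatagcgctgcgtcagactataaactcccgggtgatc

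The windows searched ran from 250 bases before to 50 bases after each start, on both strands, and 9 of the 10 genes had an entry. The composite element, TGATGNAA or TTNCATCA on the other strand, was in 3 of these 9 windows, against 3.98% of all 33469 RefSeq promoter windows and 2.57% of those of tested genes. Its first base lay 21 bases before the start of Trib3, 55 before that of Nupr1 and 167 before that of Chac1. The cAMP response element TGACGTCA was in 1 of 9, against 1.83% of all windows and 2.96% of those of tested genes, 66 bases before the start of Ppp1r15a. Its shorter form TGACG, which it contains, was in 5 of 9 (Ppp1r15a, Chac1, Trib3, Cebpb and Atf4), against 21.2% of all windows and 30.3% of those of tested genes. The ER stress element was in 0 of 9, against 0.0657% of all windows and 0.16% of those of tested genes. These are matches of letters in a short window and no binding was measured.

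Nupr1, a small nuclear stress protein that acts as a transcriptional cofactor, rose clearly. Its level was 2.94, 3.16 and 3.58 in low protein rats, against 1.73, 1.95 and 2.69 in control rats. The diets did not overlap, although the highest control lay near the lowest low protein rat. The change was 1.10 ± 0.17 (95% interval 0.74 to 1.46), or 2.14-fold (limma adjusted p = 0.00274). A second Nupr1 probe, also on 10 spots, gave 1.10 ± 0.17 and correlated with the first at r = 1.00 over the 12 arrays.

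Trib3, a pseudokinase that binds ATF4 and AKT and dampens both, rose 3.03-fold. Its level was -1.17, -0.73 and -0.30 in low protein rats, against -2.71, -2.29 and -1.79 in control rats. Every low protein rat was well above every control rat. The change was 1.60 ± 0.18 (95% interval 1.20 to 1.998, limma adjusted p = 0.000428).

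Ddit4, which encodes REDD1, an inhibitor of mTORC1, had the largest change of the 10. Its level was -0.35, 0.53 and 1.30 in low protein rats, against -2.75, -1.89 and -1.37 in control rats. All low protein rats were far above all control rats. The change was 2.52 ± 0.29 (95% interval 1.89 to 3.14), or 5.72-fold (limma adjusted p = 0.000417), and Ddit4 ranked 56 of 21855 genes by p. A second, dim probe gave 2.51 ± 0.31 (adjusted p = 0.00067). Its mean signal was 64.1 intensity units in low protein rats and 10.2 in control rats, and it was well above background on 6 of 6 low protein and 5 of 6 control arrays.

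Ppp1r15a, which recruits the phosphatase that restores translation, was not called. Its level was -1.87, -1.57 and -0.65 in low protein rats, against -1.70, -1.54 and -0.84 in control rats. Low protein rats 4 and 1 and control rats 1 and 6 were the 4 highest, so each diet held high and low livers. The change was -0.01 ± 0.23 (95% interval -0.51 to 0.48, limma adjusted p = 0.984), and its sign turned with the scaling, as given in the closing section.

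Chac1, an enzyme that degrades glutathione and is usually a sensitive ATF4 target, was also not called. Its level was -1.98, -1.44 and -0.81 in low protein rats, against -1.86, -1.71 and -0.98 in control rats. One low protein rat was above the highest control, control rat 6, and the diets otherwise lay across each other. The change was 0.13 ± 0.21 (95% interval -0.32 to 0.58, limma adjusted p = 0.774). With 1 rat left out the change was 0.0039 to 0.26, never called. The upper bound is 0.58, below the lower bounds for Trib3, Ddit4 and Nupr1.

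**Figure D2:**
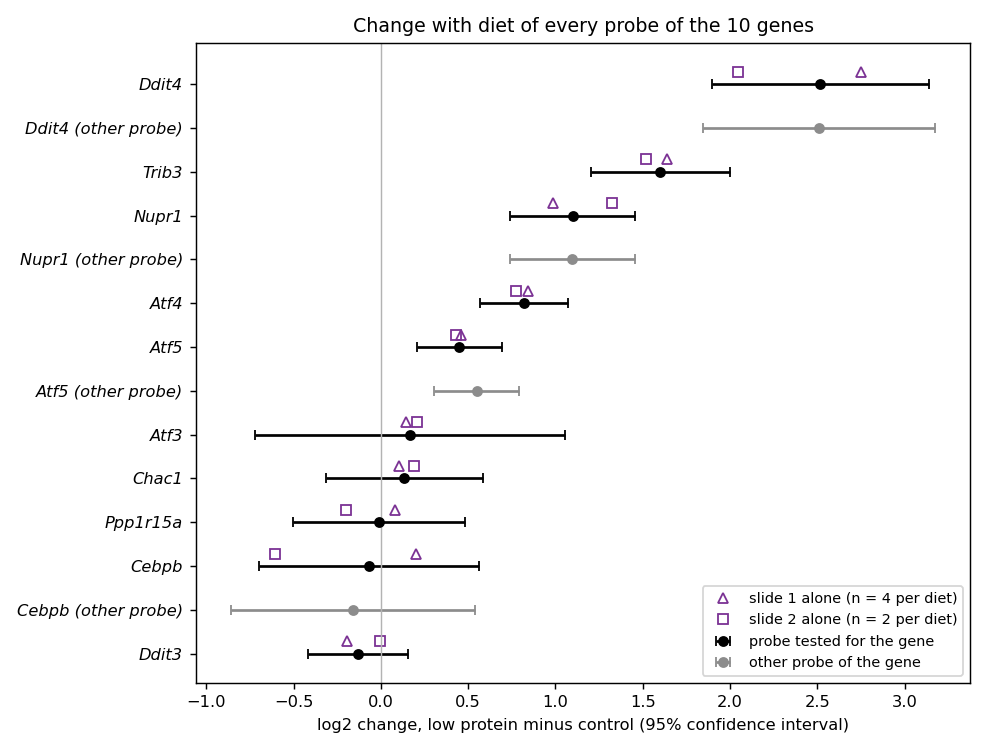
Change of each probe of the 10 genes, low protein minus control on the log2 scale, with its 95% interval from all 12 arrays (grey for second probes) and, for the probe tested, the change within slide 1 (4 rats per diet) and slide 2 (2 rats per diet). The intervals of Ddit4, Trib3, Nupr1, Atf4 and Atf5 lie above 0, those of the other 5 include 0, and the 5 higher genes are above 0 on both slides.

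Whether the genes changed by different amounts was tested directly, by permuting diet over the 12 rats for the within-array difference of each pair of genes. An exact permutation test has 924 splits of the rats and a smallest two-sided p of 0.00216, and p-values were adjusted over the 45 pairs. Of the 25 pairs of a higher gene with one that was not called, 19 differed at an adjusted p under 0.05. The genes were sorted by calls made on these same 12 arrays, so the counts of pairs by call add no separate evidence. Trib3 exceeded Chac1 by 1.47 on the log2 scale (exact permutation, adjusted p = 0.00749), and Atf4 exceeded Ddit3 by 0.95 (adjusted p = 0.0108). The 6 pairs that did not pass were Atf3 with Atf4, Nupr1 and Atf5, and Atf5 with Chac1, Ppp1r15a and Cebpb.

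The 5 higher genes also differed from one another, in 8 of 10 pairs. Ddit4 exceeded Trib3 by 0.92 (exact permutation, adjusted p = 0.0133), and Trib3 exceeded Atf4 by 0.78 (adjusted p = 0.00749). Nupr1 and Atf4 differed by 0.28 (adjusted p = 0.201), and Atf4 and Atf5 by 0.37 (adjusted p = 0.0765), neither of which passed. None of the 10 pairs among the genes not called passed.

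The higher genes moved the same way on both slides. Ddit4 rose by 2.75 on slide 1 and 2.05 on slide 2. On the same 2 slides the changes were 1.64 and 1.52 for Trib3, 0.98 and 1.33 for Nupr1, 0.84 and 0.78 for Atf4, and 0.46 and 0.43 for Atf5. With 4 rats per diet Ddit4, Trib3 and Atf4 passed on slide 1 alone by limma. With 2 per diet none of the 10 passed on slide 2 alone, while 5 had an unadjusted p under 0.05. So did 2368 of all 21855 genes on that slide. Cebpb was 0.20 on slide 1 and -0.60 on slide 2, and Ppp1r15a was 0.08 and -0.20, none of which passed.

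How the genes varied together within diets was read over both slides and on each slide. Each gene's diet mean was subtracted, and all 55 relations between the 10 genes and the mean of 13 immediate early genes were computed over the 12 rats, with 100000 permutations within diet. Atf3 and Ppp1r15a had the strongest relation (Pearson r = 0.843, permutation p = 7e-05, adjusted 0.00385; Spearman rho = 0.818, permutation p = 0.00017, adjusted 0.00935). Without the 2 rats farthest in Atf3, control rats 6 and 1, r was 0.823. It was 0.785 over the 8 rats of slide 1 and -0.292 over the 4 rats of slide 2. Those 4 rats are too few to tell whether the relation held on slide 2. All 4 rats of slide 2 lay below their diet mean in both genes. With diet and slide means subtracted, an alternative chosen after seeing the data, r was 0.775 (exact permutation over 2304 orders within diet and slide, p = 0.00781, adjusted 0.430) and rho was 0.804 (p = 0.0174, adjusted 0.597). None of the 55 relations then passed, and 3 had an unadjusted Pearson p under 0.05. The immediate early mean correlated with Atf3 at r = 0.494 (permutation p = 0.0673, adjusted 0.467). Its correlation was 0.387 with Ppp1r15a (permutation p = 0.279, adjusted 0.591) and -0.286 with Cebpb (permutation p = 0.389, adjusted 0.611).

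Atf4 and Trib3 came next (r = 0.772, permutation p = 0.00727, adjusted 0.200; rho = 0.860, permutation p = 0.0016, adjusted 0.0440). The rank correlation passed and the Pearson correlation did not. Without the 2 rats farthest in Atf4 r was 0.628, on slide 1 it was 0.729 and on slide 2 0.956. With diet and slide means subtracted r was 0.742 (exact permutation p = 0.0226, adjusted 0.621).

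**Figure D3:**
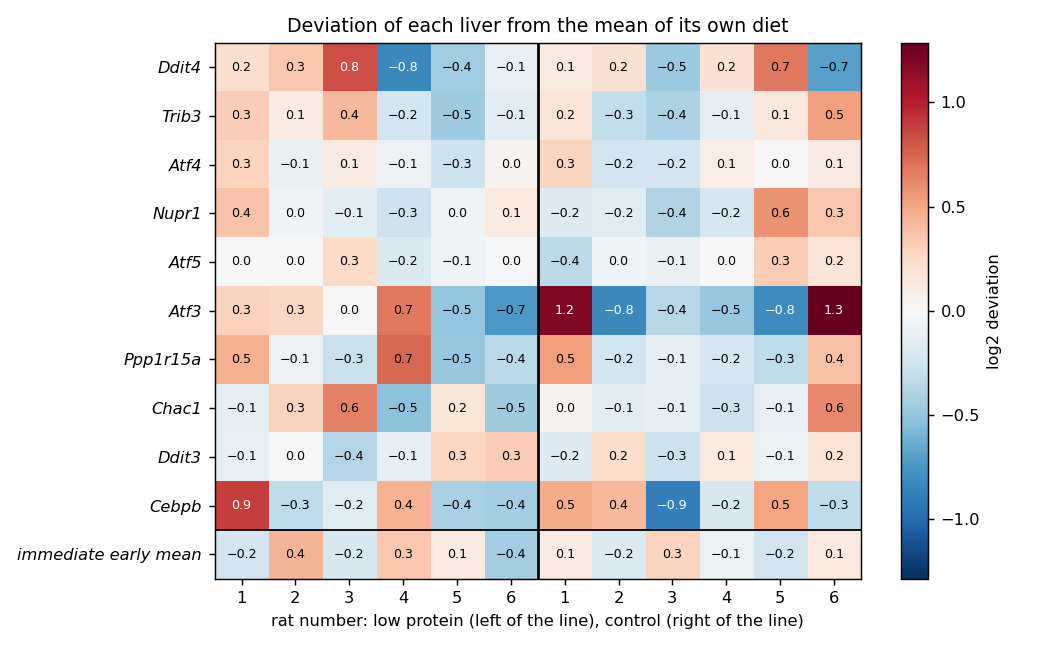
Deviation of each rat from its diet mean on the log2 scale, for the 10 genes and the mean of 13 immediate early genes, with low protein rats left of control rats. Atf3 and Ppp1r15a are both above the diet mean in low protein rats 4 and 1 and in control rats 1 and 6.

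The highest and lowest livers differed from gene to gene. Among low protein rats, rat 3 had the highest level in 4 of the 10 genes, and rat 4 had the lowest in 4. Among control rats, rat 5 had the highest level in 4 genes and rat 3 the lowest in 5. The calls of Ddit4, Trib3, Nupr1 and Atf4 held when any 1 of the 12 rats was left out, with limma adjusted p-values of at most 0.00768.

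The rest of the pathway was read from gene lists in the same limma fit, beside a median change of -0.03 over all genes tested. These lists, like the 10 genes, were chosen with earlier results of these data known. Of 28 tested targets of ATF4 in amino acid metabolism, transport and signalling, 18 rose and 0 fell, with a median change of 1.19. Eif4ebp1, which encodes a translation repressor controlled by mTORC1, rose by 1.25 ± 0.08 (limma adjusted p = 7.48e-06), with changes of 2.83 in the proline enzyme gene Pycr1, 5.39 in the hormone gene Adm2 and 6.92 in the serine synthesis gene Phgdh. The most negative of the 10 targets not called was Cth, of transsulfuration, at -0.65 ± 0.20 (adjusted p = 0.0698), named after its value was seen. Cth was called lower with quantile normalization (0.0438), with the slide as a block (0.0332), with the rat number as a block (0.0291) and without low protein rat 1 (0.0370). The composite element was in 5 of the 27 promoter windows given for tested targets, beside 2.57% for all tested genes.

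Of 15 genes for eIF2α, its kinases, its phosphatase and their regulators, 2 rose and 0 fell by limma, 4 had an unadjusted p under 0.05 and the median change was 0.03. Over all genes tested, 21.6% had an unadjusted p under 0.05. Eif2ak4, the gene of GCN2, had the largest change of the list at -0.36 ± 0.10 (adjusted p = 0.0506). It was called lower in 9 of 26 alternative settings, 8 that kept all 12 rats (adjusted p 0.0360 to 0.0499) and the one without low protein rat 2 (0.0382), and it was named after its value was seen. Eif2s1, which encodes eIF2α, changed by 0.34 ± 0.08 (limma adjusted p = 0.0344), and Gcn1, an activator of GCN2, by 0.29 ± 0.08 (adjusted p = 0.0442). Neither call held in most repeats with 1 rat left out. Eif2s1 was lost without low protein rat 1, 4, 5 or 6 or control rat 1, 3, 4 or 6 (adjusted p 0.0520 to 0.0710), and Gcn1 without any rat but low protein rat 4 or control rat 5 (0.0576 to 0.0965). With the rat number as a block the adjusted p was 0.0634 for Eif2s1 and 0.113 for Gcn1. Without scaling it was 0.0985 and 0.100, and without the filter on dim probes 0.110 and 0.140. Both calls were also lost on each slide alone. Gcn1 was lost too with quantile normalization (0.0852) and with the slide as a block (0.0512).

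Counts in the remaining lists are read beside the 6.53% of all genes that were called, a share at which lists of this size hold few calls or none. Unadjusted counts are read beside the 21.6% of all genes with an unadjusted p under 0.05. Of 12 tested genes listed as relatives of the 10 genes, 0 changed by limma, 2 had an unadjusted p under 0.05 and the median change was -0.05. Most are paralogs, but Gadd45a, Gadd45b and Gadd45g, also in that list, are not. Cebpg, a C/EBP factor that also pairs with ATF4, was at 0.21 (adjusted p = 0.137), and Trib1, the relative of Trib3, at -0.58 (adjusted p = 0.166). Of 23 other ATF, CREB and related factors, 0 were called, 3 had an unadjusted p under 0.05 and the median was 0.02. Creb3l3, a liver factor released by ER stress and fasting, was at 0.29 (adjusted p = 0.0613), and the ER stress sensor Atf6 at 0.29 (adjusted p = 0.137). Creb3l3 was called higher with normexp correction (0.0185), with the deposited value table (0.0242), with a trended spread (0.0344) and without control rat 6 (0.0437).

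Of 8 CHOP targets and cell death genes, 0 changed by limma, 1 had an unadjusted p under 0.05 and the median was -0.16. The list as drawn up held genes that promote cell death and the survival genes Bcl2 and Mcl1, so no direction is read from its median. Bbc3, which encodes the cell death protein PUMA, was at -0.39 (adjusted p = 0.0960), and the ER oxidase gene Ero1a at -0.15 (adjusted p = 0.250). Of 17 ER chaperones and targets of ATF6 or XBP1, 0 were called, 4 had an unadjusted p under 0.05 and the median was 0.18. Derl3, of ER-associated degradation, was at 1.26 (adjusted p = 0.0875, and 0.0367 without low protein rat 1), and the co-chaperone gene Dnajb9 at 0.54 (adjusted p = 0.140).

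Ddit4 is known to respond to glucocorticoids, hypoxia and p53 as well as to ATF4, so lists for those inputs were read beside it. Of 9 glucocorticoid-induced genes, 0 were called, 1 had an unadjusted p under 0.05 and the median was -0.27. Sgk1, a kinase gene of that list, was at -1.31 (adjusted p = 0.0535), and Errfi1 at -0.27 (adjusted p = 0.247). Sgk1 was called lower in 7 of 26 alternative settings, 5 that kept all 12 rats (adjusted p 0.0263 to 0.0463) and those without low protein rat 3 (0.0477) or control rat 3 (0.0317). Of 10 hypoxia-induced genes, 0 were called, 2 had an unadjusted p under 0.05 and the median was -0.00. The glucose transporter gene Slc2a1 was at -0.78 (adjusted p = 0.137, but 0.0452 with the rat number as a block and 0.0433 without low protein rat 2), and Pdk1, which holds pyruvate out of the mitochondrial cycle, at -0.27 (adjusted p = 0.180, and 0.0461 without low protein rat 1). Of 8 p53 targets, 0 were called, 0 had an unadjusted p under 0.05 and the median was -0.11, with Zmat3 at 0.14 (adjusted p = 0.297) and Aen at 0.15 (adjusted p = 0.481). The part of these inputs in the Ddit4 change was not tested.

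Atf3 is itself an immediate early gene, and Ppp1r15a and Cebpb also respond quickly to many stimuli, so that list was read too. Of 13 tested, 0 rose and 1 fell, with a median change of -0.31. Btg2, an antiproliferative gene, fell by 0.99 on the log2 scale (SE 0.23, limma adjusted p = 0.0243). That call was lost without the filter on dim probes (0.0655), on slide 1 alone (0.135) and on slide 2 alone (0.379). The mean of the list, with each gene centred over the 12 arrays, was -0.56 to 0.32 in low protein rats and -0.13 to 0.40 in control rats. Its correlations with Atf3, Ppp1r15a and Cebpb within diets are given above. Its part in their changes with diet was not tested.

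**Figure D4:**
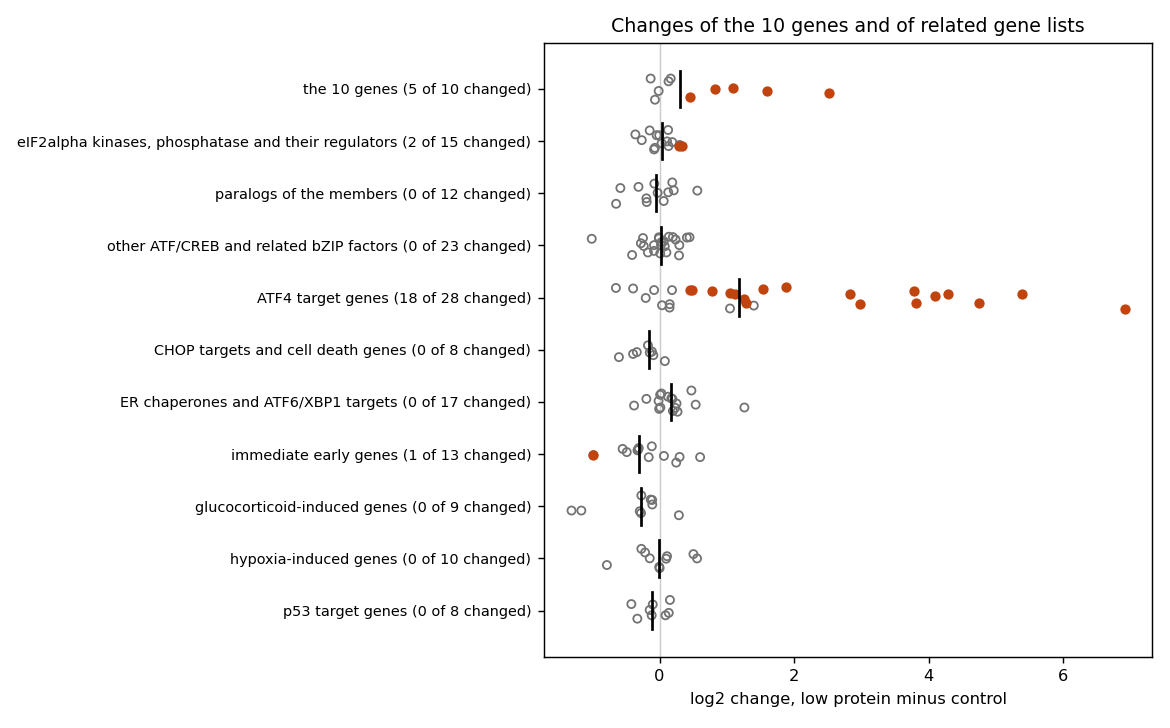
Change of each tested gene, low protein minus control on the log2 scale, for the 10 genes and the 10 gene lists, with filled points for genes called at a limma adjusted p under 0.05 and a bar at each list's median. The ATF4 targets lie mostly above 0 with 18 of 28 called, and the medians of the other lists lie between -0.31 and 0.18.

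Markers of other liver cells were compared by list. Of 6 Kupffer cell or macrophage markers, all well above background on all 12 arrays, 0 were called by limma, 4 had an unadjusted p under 0.05 and all 6 were lower, with a median change of -0.35. The share of all genes with an unadjusted p under 0.05 was 21.6%. The mean of the list, with each gene centred over the 12 arrays, was -0.32 to 0.04 in low protein rats and -0.41 to 0.56 in control rats, so the diets overlapped. Endothelial, stellate, cholangiocyte, lymphocyte, neutrophil and erythroid markers had 0 calls among 4, 5, 4, 2, 2 and 3 genes tested, and 2 of these genes had an unadjusted p under 0.05. Of the 7 hepatocyte markers 1, the lipoprotein gene Apoa1, fell by 0.84 (adjusted p = 0.00387). The part of these cells in the levels of the 10 genes was not tested.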

How the data were processed

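Per the file headers, the authors scanned the arrays with Agilent Feature Extraction 12.0.3.1, and the deposited scanner files hold spot intensity on a linear scale, background-subtracted in the processed signal, with no normalization across arrays. The series' deposited value table equals the median intensity (largest difference 0), and 0 of its columns were without a sample. From the processed intensity, log2 was taken less each array's 75th percentile, over 58717 spots that were not controls. Spots with outlier marks (453 to 739 per array) were left out and spots of a probe averaged. The SD of negative controls was 1.18 to 1.58 on low protein and 1.11 to 1.32 on control arrays, and its effect on dim probes was not tested.

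The files hold no gene names, so the unversioned RefSeq accession of a probe was matched to the GRCr8 table: 21215 of 45598 probes (46.5%) had a name. A probe was kept if it was well above background on 5 or 6 arrays of either diet, and each gene was represented by its brightest probe on average. This left 21855 genes, 11386 of them named. Low protein minus control was tested with limma 3.58.1 (R 4.3.3, data.table version 1.17.8), two-sided, with Benjamini-Hochberg adjustment over all genes. The step was tested on simulated arrays with 200 of 21855 genes changed. It called 40.3% of the 1.5-fold changes, 70.1% of the 2-fold changes and 97% of the 4-fold changes. Of its calls, 5.48% were false. A gene that was not called may therefore still have changed. Every adjusted p for a change is limma's. The labels number 1 rat per array, so the p-values rest on the spread between rats.

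The genes named were the 10 members, per list up to 4 changed genes with the smallest adjusted p or 2 with the smallest p where none changed, and changed cell type markers. Eif2ak4 and Cth were added after their values were seen. The members and lists were chosen with earlier results of these data known. Alternatives were normexp background correction with an offset of 50, no scaling, quantile normalization, the deposited table, other filters and probe rules, slide and rat number as blocks, each slide alone, and each rat left out, with slide means subtracted from the correlations as an alternative chosen after seeing the data. Figures were drawn with matplotlib 3.10.9 in Python 3.11.15 (numpy 2.4.6, pandas 2.3.3).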

Additional observations from a re-analysis of the deposited data

Results flagged for a closer look

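Among the 68 groups of 6 rats tested for a liver far from the others of its diet, 20 of them groups of the 10 genes, 2 exceeded Dixon's critical gap ratio, and chance alone gives about 1 in 20. Control rat 6 had a Chac1 level of -0.98, above the next control at -1.56 (gap ratio 0.660). Control rat 1 had a Pycr1 level of -2.82, above the next control at -3.28 (gap ratio 0.641).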

How the results depend on the processing

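Over 26 alternative settings, 227 of 260 values of the 10 genes kept their direction and side of the threshold, 17 lost their call and 16 changed sign. Ddit4, Trib3 and Atf4 lost their call only on slide 2 alone, Nupr1 there and on slide 1 alone (change 0.98, limma adjusted p = 0.101), and Atf5 in 12 settings. The count of higher genes among the 10 was 3 on slide 1 alone, 0 on slide 2 alone and 4 to 5 with any rat left out. On slide 2 alone 5 of the 10 had an unadjusted p under 0.05, beside 2368 of all 21855 genes. Over all genes, 1428 changed, against 890 without scaling, 618 without the filter on dim probes, 164 on slide 1 alone, 12 on slide 2 alone and 873 to 1305 with a rat left out, the lowest without control rat 3. The slides hold fewer rats, and the filter's removal adds genes to 39002. The sign changes were all in genes that were not called. Ppp1r15a was 0.12 without scaling, 0.0017 with quantile normalization, 0.079 on slide 1 alone and -0.16 to 0.093 with a rat left out. Cebpb was 0.065 without scaling, 0.20 on slide 1 alone and -0.25 to 0.035 with a rat left out. The labels do not say that rat numbers pair the diets. Deviations of same-numbered rats correlated at 0.034 to 0.261, over 0.1 for 5 of 6 numbers, and 2 of 6 low protein and 2 of 6 control rats correlated best with their own number. With the replicate number as a block, 1411 genes and 4 of the 10 changed, Atf5 being lost; among other named genes Eif2s1 and Gcn1 were lost and Slc2a1 and Cth gained. For the 24 other named genes, 559 of 624 values stayed on their side of the threshold, 37 lost a call and 28 gained one. The correlation of Atf3 with Ppp1r15a did not pass once slide means were subtracted (r = 0.775, adjusted permutation p = 0.430). The number of arrays limits precision, and the second Ddit4 probe lay near background in controls.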
